A study of Mus musculus with 2 samples.

Results

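Nrxn2, Nrxn3, Nlgn1, Nlgn2, Nlgn3 and Cntnap2 are 6 genes of synaptic adhesion proteins, taken by name as a fixed list out of the 21938 protein-coding genes annotated in GENCODE M21 on the 21 chromosomes. Their open chromatin was read in 2 DNase-seq libraries of right cerebral cortex from male B6CASTF1/J mice (a first-generation C57BL/6J by CAST/EiJ cross) aged 2 months. DNase-seq sequences the places where the enzyme DNase I cuts DNA in nuclei, so that a peak marks an accessible stretch. The libraries are labelled biological replicates 1 and 2 and carry the animal numbers 5 and 6. A single donor record covers both, and the animal numbers alone say that 2 mice were used. There was 1 group, no treatment and no second genotype, and with 2 libraries no test was possible, so values are given by library. Whole tissue holds many cell types, and in such bulk samples open chromatin in few cells and weakly open chromatin in many cells cannot be told apart.

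Neurexins are adhesion proteins of the presynaptic membrane, and neuroligins are their partners on the postsynaptic side. The pair spans the synaptic cleft and helps to organise release sites and receptors. A neurexin gene has an upstream promoter for the long alpha forms and a promoter inside the gene for the short beta forms. Nlgn1 is best known from excitatory synapses, Nlgn2 from inhibitory synapses and Nlgn3 from both. Cntnap2 encodes CASPR2, a member of the neurexin superfamily that binds contactin-2 and holds potassium channels near the nodes of axons.

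Replicate 1 held 91818 peaks of the strict set and replicate 2 held 75245. The height of a peak is the signal the authors deposited, with no stated scale, and its median was 0.932 in replicate 1 and 0.806 in replicate 2. Read depth is not known here, and neither is the precision of a single height. All 10 marker genes of cortical neurons were open at a promoter in replicate 1 and 7 in replicate 2, where Cux2, Slc17a7 and Tbr1 had no peak. Of 3 microglial markers none had one in either library, 2 of 3 astrocyte and 2 of 3 oligodendrocyte markers had one in both, and of 3 inhibitory neuron markers 1 did, with Gad2 and Slc32a1 at none. Of 3 markers of other tissues, Alb and Hoxa10 had none and Myh7 had a peak in both. The part of cell mixture in the values below was not tested.

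All 6 genes had a peak within 1000 bp of at least 1 of their transcript starts, in replicate 1 and in replicate 2. Over all protein-coding genes the share was 63.4% in replicate 1, 59.3% in replicate 2 and 58.7% in both. Starts less than 1000 bp apart were joined, which gave 27 alternative promoters of the 6 genes. Of these, 14 were open in replicate 1 and 12 in replicate 2, these 12 being open in both. Over the 48610 alternative promoters of all protein-coding genes the shares were 35.5% in replicate 1, 31.9% in replicate 2 and 31% in both. Of the 16 promoters at which a protein-coding transcript starts, 11 had a peak in replicate 1 and 9 in replicate 2, beside 47.3% and 43.1% of such promoters over all protein-coding genes. Of the 11 without such a transcript 3 did in each, beside 11.9% and 9.35%. Each gene has several promoters and so several chances of a peak, and the 6 genes are not independent samples.

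**Figure D1:**
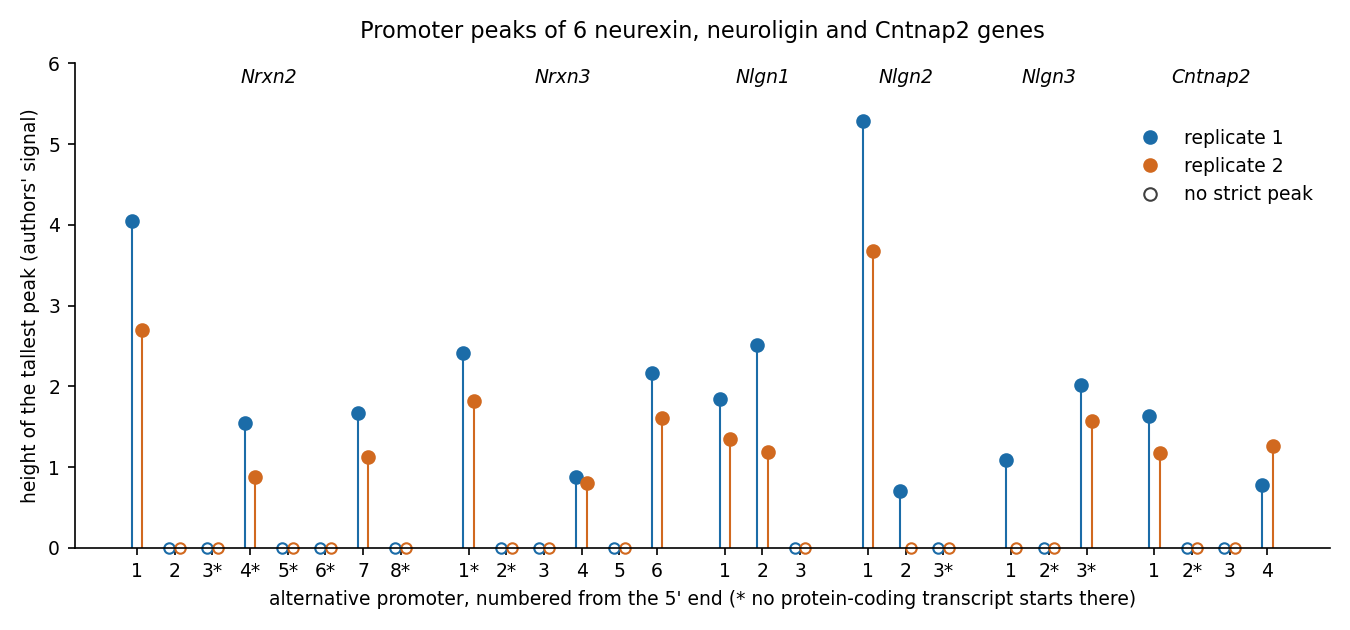
Height of the tallest strict peak (vertical axis, the authors' signal) within 1000 bp of each alternative promoter of the 6 genes, numbered from the 5′ end; filled points are peaks in replicate 1 (blue) and replicate 2 (orange), open points on the axis are promoters with none, and an asterisk marks promoters without a protein-coding transcript. Nlgn2 promoter 1 is highest at 5.29 and 3.67, and 13 of the 27 promoters have no peak in either library.

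Both neurexin genes were open at an upstream promoter and again at a coding promoter far inside the gene. In Nrxn2, the upstream promoter (promoter 1, chr19:6418731-6418765, where 4 protein-coding transcripts start) carried a peak of height 4.05 in replicate 1 and 2.70 in replicate 2, which is 3.37 ± 0.957 (SD, n = 2). It lay across the start itself and stood above 66.5% and 63.7% of the tallest promoter peaks of the protein-coding genes that had one. A further peak upstream reached 2.41 and 1.27, and the start nearest to it is that of the noncoding gene Gm14965. Gm14965 also starts within 1000 bp of the higher peak, so by distance alone these peaks cannot be given to one of the 2 genes. Promoter 7, 78940 bp into the gene, where 2 protein-coding transcripts start, carried 1.66 and 1.12. The order of these 2 coding promoters was the same in both libraries, upstream above internal. A peak of 1.55 and 0.875 stood 891 bp and 851 bp from promoter 4, the start of a noncoding transcript. Promoters 2, 3, 5, 6 and 8 had no peak in either library, although promoter 2 held bases with a false discovery rate (q-value) down to 0.0412 in replicate 1 and 0.0238 in replicate 2.

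The sequences under the 2 open coding promoters of Nrxn2 are printed from the RefSeq C57BL/6J reference GRCm38.p6. Capitals mark bases inside footprints called in both libraries. A footprint is a short run of protected bases within an open region. The animals carry a CAST/EiJ chromosome too, whose letters may differ. Untranslated bases were left out.
Nrxn2 promoter 1, chr19:6418581-6418730, plus strand: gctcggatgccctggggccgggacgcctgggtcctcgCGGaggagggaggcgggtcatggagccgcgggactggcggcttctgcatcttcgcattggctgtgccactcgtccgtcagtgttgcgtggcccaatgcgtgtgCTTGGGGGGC
Nrxn2 promoter 7, chr19:6497364-6497460, plus strand: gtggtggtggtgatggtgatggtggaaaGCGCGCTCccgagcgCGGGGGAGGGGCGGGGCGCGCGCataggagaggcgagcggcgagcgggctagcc
The stretch at promoter 7 was 74.2% G and C, with 13 CpG dinucleotides in 97 bases and an observed over expected CpG ratio of 1.21. Of its bases 51.5% are repeat-masked. At promoter 1, with 90 untranslated bases left out, G and C made up 70% and the ratio was 0.794, with 14 CpG in 150 bases. In 200 bp at the peak centre the 2 promoters were closer. There the ratio at promoter 1 was 0.838 in both libraries, and at promoter 7 it was 0.923 in replicate 1 and 0.909 in replicate 2. G and C made up 69% at promoter 1, and 72.5% and 71.5% at promoter 7. The 2 shared footprints at promoter 7 cover 31 bases, and one spans a GGGCGG word, the usual letters of an SP or KLF site. The match describes letters only.

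Nrxn3 spans 1612.06 kb, and its highest promoter peaks lay at the first and the last of 6 promoters. Promoter 1 (chr12:88722876-88723109) carried a peak of 2.41 in replicate 1 and 1.82 in replicate 2, or 2.11 ± 0.417 (SD, n = 2), although none of its 4 transcripts is annotated as protein-coding. Promoter 6, at chr12:89812483, lies 1089607 bp further on and is the start of 2 short protein-coding transcripts, and its peak reached 2.17 and 1.61. These heights differ by less than the gap between the libraries. Promoter 4, the start of Nrxn3-201, carried lower peaks of 0.882 and 0.806. The other 3 promoters had no peak, among them promoter 3, from which the longest protein-coding transcript Nrxn3-205 starts, and neither library listed a base under q 0.05 within 1000 bp of it. Promoters 1 and 6 are shown because they were open to a similar height far apart in the gene.
Nrxn3 promoter 1, chr12:88722761-88722980, plus strand: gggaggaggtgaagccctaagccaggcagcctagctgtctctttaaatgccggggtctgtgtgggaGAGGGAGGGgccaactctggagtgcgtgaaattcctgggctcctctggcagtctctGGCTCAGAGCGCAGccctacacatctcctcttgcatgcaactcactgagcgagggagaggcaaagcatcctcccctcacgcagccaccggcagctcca
Nrxn3 promoter 6, chr12:89812261-89812482, plus strand: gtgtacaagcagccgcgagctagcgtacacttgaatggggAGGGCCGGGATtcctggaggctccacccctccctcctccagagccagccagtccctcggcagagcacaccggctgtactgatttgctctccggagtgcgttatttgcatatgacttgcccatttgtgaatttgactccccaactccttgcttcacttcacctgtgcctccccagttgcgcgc
Promoter 1 holds 2 shared footprints over 23 bases and promoter 6 holds 1 over 11 bases. Their CpG ratios were 0.294 and 0.538, both below the medians of 0.679 and 0.712 over all promoter peaks of replicates 1 and 2, taken in 200 bp at the peak centre.

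The neuroligin genes differed more from one another. Nlgn1 (906.246 kb) was open over a wide stretch at its first promoter and again 179153 bp inside the gene. At promoter 1 (chr3:26331870-26332460) replicate 1 had 4 peaks and replicate 2 had 3, with 24 and 12 footprints in them. Across the start at chr3:26331870 the heights were 1.80 and 1.34, and at a site upstream 1.84 and 1.08. The noncoding gene A830092H15Rik also starts within 1000 bp of the peak across that start. To the wide peak beside it, of 1.48 and 0.983, the A830092H15Rik start is the nearest, 260 bp and 331 bp from the peak centre. By distance alone these peaks cannot be given to one of the 2 genes. At promoter 2 (chr3:26153307, the start of the protein-coding transcript Nlgn1-203) the highest peak reached 2.51 in replicate 1 and 1.18 in replicate 2. It lay 614 bp and 649 bp from that start. The peak across the start itself (chr3:26153041-26153400) reached 1.18 in replicate 1. Replicate 2 had no strict peak over it, only listed bases with q down to 0.00102. By the highest peak within 1000 bp, the internal promoter was the higher one in replicate 1 and the lower one in replicate 2. The libraries thus do not give one order. The internal peak of 2.51 and 1.18 had a height ratio of 2.12 between the libraries, above 97.3% of all shared peaks. Promoter 3 (chr3:26133734), where the protein-coding Nlgn1-201 and Nlgn1-202 start, had neither a peak nor a listed base in either library. The peak across that start of promoter 1 lies wholly in untranslated sequence and is not printed, and the shared part of the peak near promoter 2 is printed because its 1 shared footprint covers 36 bases.
Nlgn1 promoter 2, chr3:26153956-26154082, minus strand: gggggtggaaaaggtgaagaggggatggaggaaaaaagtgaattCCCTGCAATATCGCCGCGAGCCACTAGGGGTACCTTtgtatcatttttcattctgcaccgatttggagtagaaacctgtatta

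Nlgn2, a gene of 14.663 kb, had the highest promoter peak of the 6 genes in both libraries. The peak reached 5.29 in replicate 1 and 3.67 in replicate 2, or 4.48 ± 1.14 (SD, n = 2), above 83.2% and 83.4% of the tallest promoter peaks of protein-coding genes. It began 217 bp and 257 bp upstream of the start at chr11:69837784, and the neighbouring gene Tmem256 also starts within 1000 bp of it. By distance alone the peak cannot be given to one of the 2 genes. A second peak inside exon 1 was lower, at 1.13 and 0.737, and held no footprint in either library. Promoter 2, 3525 bp into the gene, had a peak of 0.701 in replicate 1, and in replicate 2 only listed bases with q down to 0.00375. Promoter 3 had neither. The central stretch between Nlgn2 and Tmem256 is printed since it holds 6 shared footprints, the most of the promoter stretches printed.
Nlgn2 promoter 1, chr11:69838091-69838390, minus strand: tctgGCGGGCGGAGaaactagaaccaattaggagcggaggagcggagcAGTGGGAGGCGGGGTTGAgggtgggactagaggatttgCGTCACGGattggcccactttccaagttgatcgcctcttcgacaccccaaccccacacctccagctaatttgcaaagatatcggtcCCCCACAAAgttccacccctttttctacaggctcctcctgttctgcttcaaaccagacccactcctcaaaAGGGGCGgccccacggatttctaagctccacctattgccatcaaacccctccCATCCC
It has a GGGCGG word near each end, and 6 bases of the first and 5 of the other lie in shared footprints.

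Nlgn3 on the X chromosome had its highest promoter peak inside the gene. At promoter 1 (chrX:101299168-101299210), where 4 protein-coding transcripts start, replicate 1 had a peak of 1.08 that was 54 bp wide. Replicate 2 had no strict peak there, only listed bases with q down to 0.0101 and a peak of the broader set. At promoter 3 (chrX:101314391), the start of a noncoding transcript, both libraries had a peak, of 2.02 and 1.57, or 1.80 ± 0.316 (SD, n = 2), lying in intron 4. In both libraries the internal noncoding start thus had the higher peak, above the start of the protein-coding transcripts. Promoter 2 (chrX:101300474) had listed bases with q down to 0.00205 and 0.00831, but no peak. The intronic stretch is printed because 3 of its 5 shared footprints lie over a repeated word.
Nlgn3 promoter 3, chrX:101314001-101314260, plus strand: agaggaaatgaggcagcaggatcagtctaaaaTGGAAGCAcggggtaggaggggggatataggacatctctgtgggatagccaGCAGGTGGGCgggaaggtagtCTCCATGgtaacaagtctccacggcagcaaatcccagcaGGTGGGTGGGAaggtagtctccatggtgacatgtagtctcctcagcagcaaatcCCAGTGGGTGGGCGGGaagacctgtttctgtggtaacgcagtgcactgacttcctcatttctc
The word GTGGGNGGG occurs at bases 88 to 96, 145 to 153, 201 to 209 and 205 to 213 from the 5′ end of the printed stretch, the last 2 overlapping. Of these words, 6, 9, 9 and 9 bases lie in shared footprints. The word was chosen after the sequence was seen, and 6.02% and 6.39% of all promoter peaks of replicates 1 and 2 hold it, on either strand, within 200 bp at their centre. No start of another gene lay within 1000 bp of this peak.

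Cntnap2, at 2244.86 kb the longest of the 6 genes, had the lowest of the 6 highest promoter peaks. It reached 1.63 in replicate 1 and 1.26 in replicate 2, or 1.44 ± 0.260 (SD, n = 2), above 24.3% and 24.9% of the tallest promoter peaks of protein-coding genes. The 2 libraries took this value from different promoters. At promoter 1 (chr6:45059357-45060061) 3 peaks in each library reached 1.63 and 1.17 and held 16 and 12 footprints. At promoter 4 (chr6:47244387-47244453), 2185030 bp further on near the 3′ end, where 2 protein-coding transcripts start, the heights were 0.782 and 1.26. The ratio of replicate 1 to replicate 2 was thus 1.38 at the first of these peaks and 0.621 at promoter 4, lower there than for all but 1.17% of shared peaks. Promoters 2 and 3 had no peak, and promoter 3 (chr6:47045060) held listed bases with q down to 0.00407 and 0.00434. The part of the promoter 4 peak outside untranslated sequence is printed, since this promoter had the higher peak in replicate 2.
Cntnap2 promoter 4, chr6:47244284-47244386, plus strand: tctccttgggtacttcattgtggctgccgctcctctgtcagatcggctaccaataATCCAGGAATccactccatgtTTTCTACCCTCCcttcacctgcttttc

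As a group, the highest promoter peaks of the 6 genes had a median below that of other genes: it was 2.46 in replicate 1 and 1.70 in replicate 2, beside 3.02 and 2.17 over all protein-coding genes with a promoter peak. Nrxn2 and Nlgn2 were above the median of all such genes in both libraries, and Nrxn3, Nlgn1, Nlgn3 and Cntnap2 were below it in both. Over the 26 and 22 promoter peaks of the 6 genes, the median observed over expected CpG ratio was 0.511 and 0.398. The GGGCGG word, read on both strands in 200 bp at the peak centre, was in 7 of the 26 (26.9%) and 6 of the 22 (27.3%), beside 39.6% and 42.0% of all promoter peaks. These counts rest on few peaks, several of which share a promoter.

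Across gene bodies and 20000 bp on each side, the 6 genes held 125 peaks in replicate 1 and 123 in replicate 2. Nrxn2 was dense: 19 and 17 peaks in a window of 165439 bp, or 11.5 and 10.3 per 100 kb. Its density ranked 3783 and 3920, from the lowest, among the 4009 protein-coding genes of 50 to 200 kb, whose medians were 4.99 and 4.13. Of its peaks 12 and 10 were intronic. The peak furthest from the 5′ end lay 88853 bp in for replicate 1 and 100040 bp in for replicate 2, so that the 3′ end of the gene and its flank held none.

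The 3 longest genes differed in density for their size. Nrxn3 held 50 and 52 peaks, or 3.03 and 3.15 per 100 kb, which ranked 142 and 173 of the 230 protein-coding genes of 500 kb or more, with class medians of 2.60 and 2.28. Nlgn1 held 16 and 18 peaks, or 1.69 and 1.90 per 100 kb, at ranks 74 and 94. Cntnap2 held 27 and 28, or 1.18 and 1.23 per 100 kb, at ranks 35 and 41. So in both libraries Nrxn3 lay above the median of its class, and Nlgn1 and Cntnap2 below it.

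Within the long genes the peaks were uneven. Cutting each gene body into 4 equal parts from the 5′ end, Cntnap2 had 7, 3, 3 and 11 peaks in replicate 1 and 5, 3, 6 and 11 in replicate 2. Both libraries thus had the most in its last part, which holds promoters 3 and 4. Nlgn1 had 9, 2, 2 and 1 in replicate 1 and 7, 3, 3 and 4 in replicate 2, with the most at the 5′ end. Nrxn3 had 11, 13, 17 and 6, and 11, 15, 15 and 9, with the fewest in its last part. The longest stretch without a peak centre was 634.9 kb and 340.1 kb in Cntnap2, 326.8 kb and 149.4 kb in Nlgn1 and 214.5 kb and 178.3 kb in Nrxn3. In Cntnap2 and Nlgn1 these stretches differed by more than 1.5 times between the libraries.

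The short genes Nlgn2 and Nlgn3 held more peaks than the median of 3 in each library for protein-coding genes under 50 kb. Nlgn2 had 6 and 4, of which 2 and 1 lay at the promoter of another gene (Plscr3), and Nlgn3 had 7 and 4. Of the 7 peaks of Nlgn3 in replicate 1, 1 lay at the promoter of another gene (Med12). In replicate 1 the 2 peaks at Plscr3 overlapped each other, as did 2 peaks downstream of Nlgn3. The densities of Nlgn2 and Nlgn3 were 11.0 and 7.32, and 10.5 and 5.99 per 100 kb, beside medians of 6.20 and 4.89 for the same class.

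**Figure D2:**
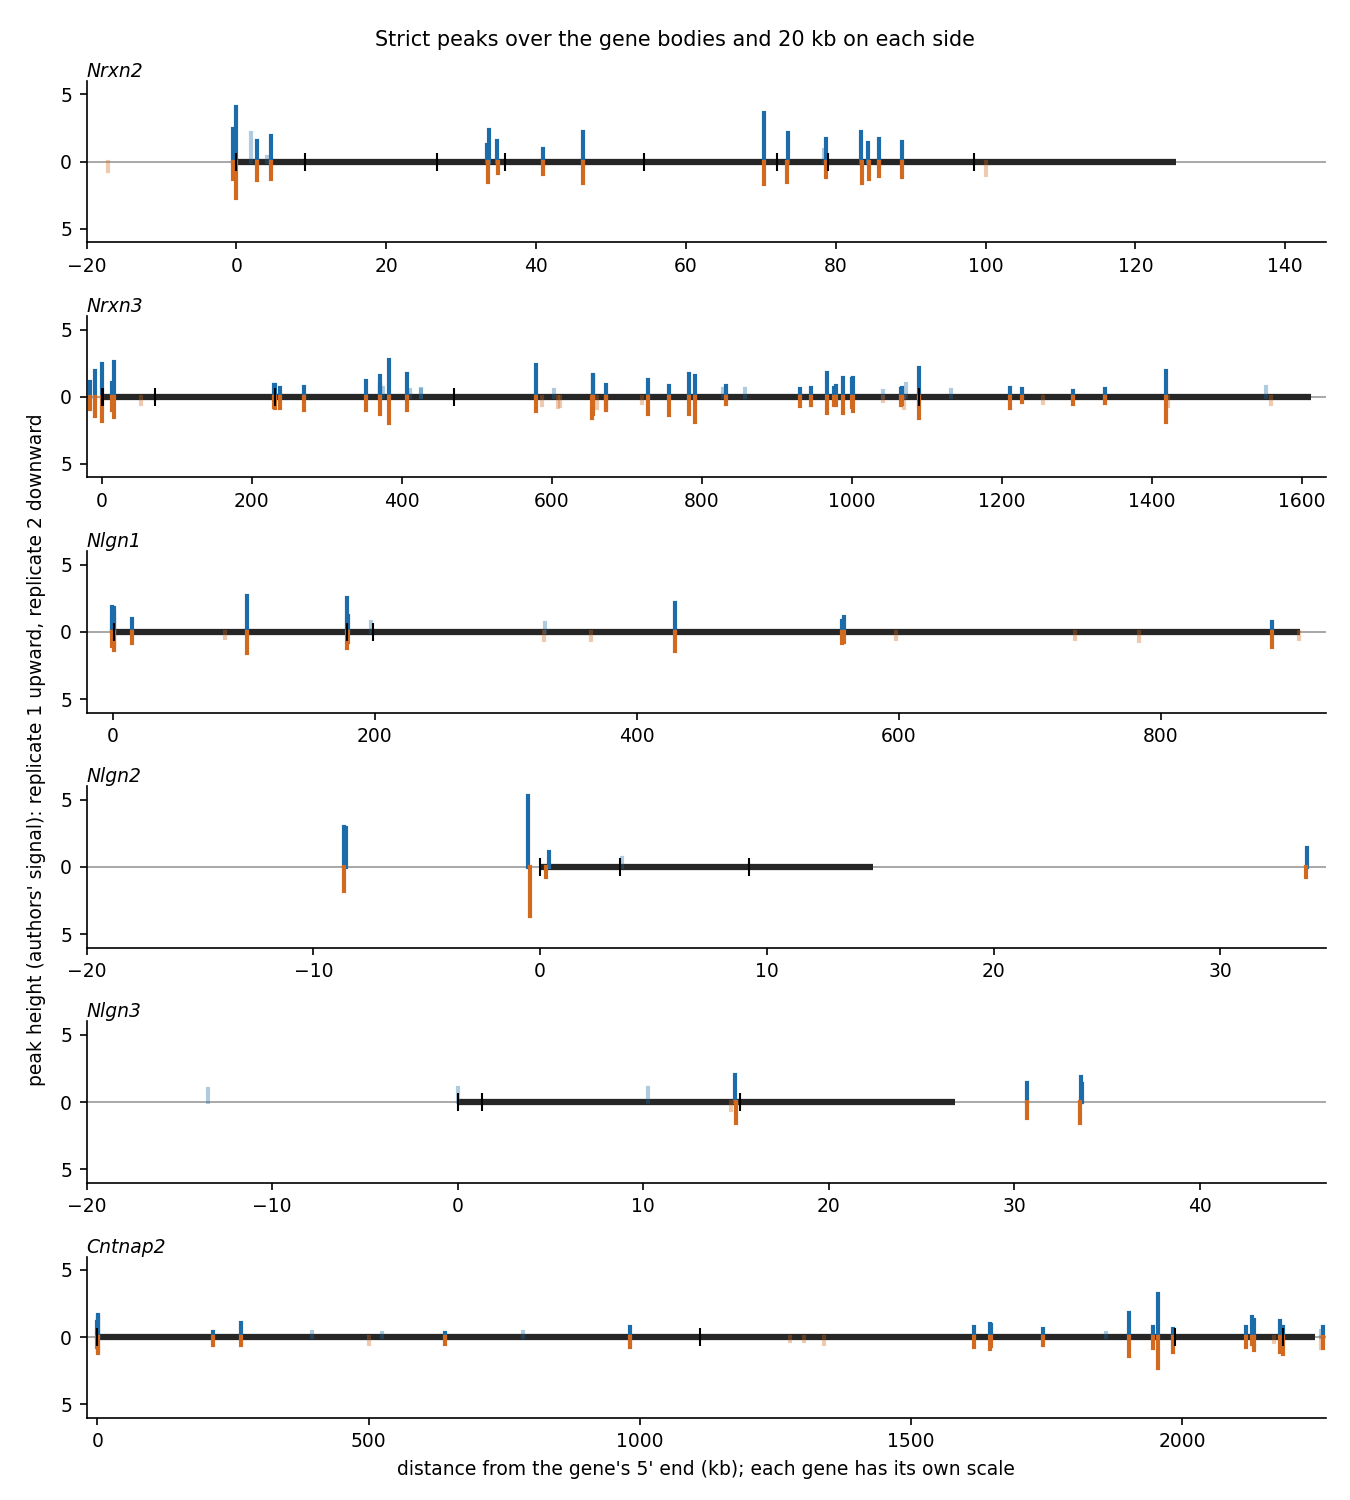
Strict peaks over each gene and 20 kb on each side, placed by the distance of their centre from the gene's 5′ end (horizontal axis, kb, a separate scale for each gene); line length is the peak height (the authors' signal), upward for replicate 1 and downward for replicate 2, pale lines are peaks with no overlapping peak in the other library, thick bars are gene bodies and ticks alternative promoters. The Nrxn2 peaks end 88853 bp and 100040 bp from the 5′ end, and the last of 4 equal parts of Cntnap2 holds 11 peaks in each library.

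**Figure D3:**
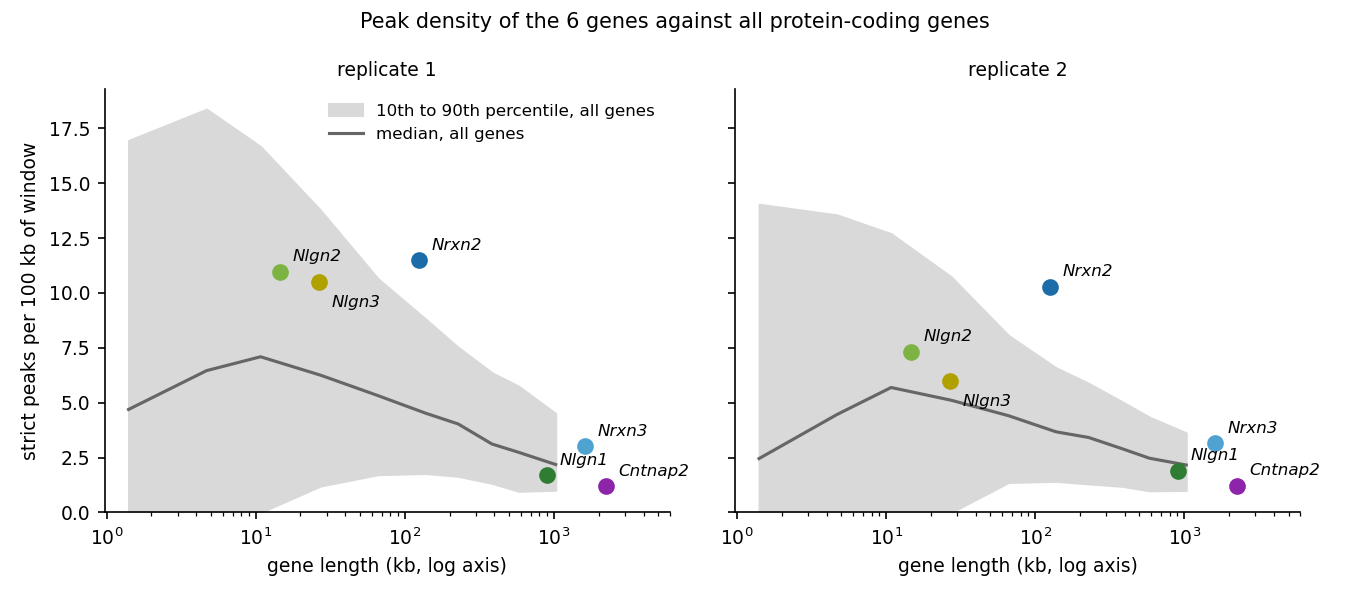
Strict peaks per 100 kb of gene body and flanks of 20000 bp (vertical axis) against gene length (horizontal log axis, kb), for replicate 1 on the left and replicate 2 on the right; the line is the median and the band the 10th to 90th percentile over protein-coding genes binned by length, and points are the 6 genes. Nrxn2, at 11.5 and 10.3, is above the band in both panels.

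Apart from promoters, each gene had accessible sites deep in its introns or in its flanks. The highest shared peaks over 1000 bp from every start of any gene were intronic in Nrxn2, Nrxn3, Nlgn1 and Cntnap2 and lay downstream of Nlgn2 and Nlgn3. In Nrxn2 the peak in intron 12 (chr19:6489081-6489260 in replicate 1) reached 3.59 and 1.69, close to the height of the upstream promoter in replicate 1 but not in replicate 2. In Nrxn3 the peak in intron 3 (chr12:89106481-89106680) reached 2.77 and 1.94, 86.5 kb from the nearest start. In Cntnap2 the peak in intron 16 (chr6:47013641-47013800) reached 3.21 and 2.30. That peak was higher than every promoter peak of Cntnap2 in both libraries, and it stood above 91.1% and 91.0% of all peaks. The Nrxn3 peak, too, exceeded every Nrxn3 promoter peak in both libraries.

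In Nlgn1 the peak in intron 1 (chr3:26230121-26230340) reached 2.69 and 1.56, also above its promoter peaks in both libraries. The next highest, in intron 5, reached 2.13 and 1.39. The shared distal peaks of the other 2 neuroligin genes all lay in their flanks. Downstream of Nlgn3 a peak of 1.84 and 1.53 (chrX:101332501-101333020) lay 18.4 kb from the nearest start. Replicate 1 had a further peak of 1.36 under the same replicate 2 peak, and a site 15450 bp from the nearest start reached 1.39 and 1.20. Downstream of Nlgn2 the 1 shared peak reached 1.40 and 0.753 and lies 1.66 kb from a start of Tmem102, so its link to Nlgn2 is by position alone. Ordered by the mean of both libraries, the next highest were 2.33 and 1.54 (intron 5) and 2.23 and 1.60 (intron 17) in Nrxn2, 2.60 and 1.50, and 1.94 and 1.84 (intron 15) in Nrxn3. They were 1.13 and 0.737 (intron 5) in Nlgn1, and 1.76 and 1.37 (intron 15) and 1.24 and 1.09 (intron 21) in Cntnap2. Within a single library other shared peaks of Nrxn2, Nrxn3, Nlgn1 and Cntnap2 ranked among the 3 highest, such as one in Nrxn3 intron 7 at 2.33 in replicate 1 and 1.09 in replicate 2.

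The sites below are shown because a shared footprint in each of the first 3 spans a match to the CTCF consensus, the letters bound by the insulator protein CTCF, and the Nrxn2 site in intron 5 holds AGGGGGCGC, a core of it. The tallest Nrxn2 site, which has 11 of the 12 letters of the consensus in a shared footprint, and the site downstream of Nlgn3, which is rich in CpG, are shown beside them.
Nrxn3 intron 3, chr12:89106501-89106680, plus strand: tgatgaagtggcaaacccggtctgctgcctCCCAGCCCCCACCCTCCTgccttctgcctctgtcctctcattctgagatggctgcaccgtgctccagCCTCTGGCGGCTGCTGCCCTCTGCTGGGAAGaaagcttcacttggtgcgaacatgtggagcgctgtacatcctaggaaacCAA
Cntnap2 intron 16, chr6:47013641-47013800, plus strand: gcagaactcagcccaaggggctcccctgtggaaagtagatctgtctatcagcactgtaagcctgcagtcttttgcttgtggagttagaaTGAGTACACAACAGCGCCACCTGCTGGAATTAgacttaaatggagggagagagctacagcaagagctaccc
Cntnap2 intron 15, chr6:46961381-46961540, plus strand: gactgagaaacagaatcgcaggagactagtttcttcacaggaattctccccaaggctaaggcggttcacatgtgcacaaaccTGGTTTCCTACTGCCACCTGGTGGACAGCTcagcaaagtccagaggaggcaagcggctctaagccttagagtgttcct
Nrxn2 intron 5, chr19:6452301-6452500, plus strand: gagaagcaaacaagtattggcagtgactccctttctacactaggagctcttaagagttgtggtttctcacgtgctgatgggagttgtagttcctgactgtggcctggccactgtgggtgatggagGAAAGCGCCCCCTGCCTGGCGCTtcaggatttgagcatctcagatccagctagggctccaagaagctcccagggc
Nrxn2 intron 12, chr19:6489094-6489245, plus strand: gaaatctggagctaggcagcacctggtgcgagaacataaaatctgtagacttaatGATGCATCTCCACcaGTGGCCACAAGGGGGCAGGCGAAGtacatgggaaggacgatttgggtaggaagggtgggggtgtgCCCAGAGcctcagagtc
Nlgn3 downstream, chrX:101332581-101332880, plus strand: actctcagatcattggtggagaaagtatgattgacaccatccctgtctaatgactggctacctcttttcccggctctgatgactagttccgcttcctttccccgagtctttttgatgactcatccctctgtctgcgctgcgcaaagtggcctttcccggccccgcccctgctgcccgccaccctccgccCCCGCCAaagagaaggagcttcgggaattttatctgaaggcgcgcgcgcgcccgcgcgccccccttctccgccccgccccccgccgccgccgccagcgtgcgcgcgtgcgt
The consensus matched at bases 113 to 124 of the Nrxn3 stretch, 105 to 116 of the intron 16 stretch and 95 to 106 of the intron 15 stretch of Cntnap2, each on the strand opposite to the gene, with all of its bases in a shared footprint. In the stretch of Nrxn2 intron 12 the nearest fit lies at bases 75 to 86, on the strand of the gene, with 1 letter off and all 12 bases in a shared footprint. A site downstream of Nlgn3 that is not printed, chrX:101329761-101329940, had 11 of the 12 letters too. They lie on the strand opposite to the gene, with all 12 bases in shared footprints. The AGGGGGCGC word of Nrxn2 intron 5 lies at bases 130 to 138, again on the opposite strand and all in a shared footprint. The Nlgn3 stretch had 30 CpG in 300 bases and an observed over expected ratio of 1.05. In 200 bp at the peak centre, the ratio was 1.08 for the higher replicate 1 peak and 0.646 for the replicate 2 peak. The medians over all distal peaks, taken in the same way, were 0.260 and 0.249 in replicates 1 and 2.

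Matches to the CTCF consensus, which was added after the sequences were seen, were about as common around the 6 genes as elsewhere. Read within 200 bp at the peak centre, 8 of the 94 distal peaks in replicate 1 (8.51%) and 8 of the 97 in replicate 2 (8.25%) held one, beside 7.26% and 8.33% of all distal peaks. All of these lay in the windows of Nrxn3 and Cntnap2. Among tall distal peaks, those at or above the 75th percentile of height of their library, the count was 4 of 21 (19.0%) and 4 of 19 (21.1%), beside 20.2% and 19.1% of all tall distal peaks. Over all distal peaks of the windows the more common words were near the background as well. TGANTCA, the AP-1 word, was in 15 and 16 distal peaks (16.0% and 16.5%, beside 13.8% and 15.6% of all), and TTGGC, part of an NFI site, was in 44 and 42 (46.8% and 43.3%, beside 40.1% and 40.1%). CANNTG, the E-box, was in 76.6% and 77.3%, beside 75.4% and 75.7%. Among tall distal peaks, which are few, AP-1 was in 5 of 21 (23.8%) and 3 of 19 (15.8%), beside 10.2% and 11.7% of all tall distal peaks, and NFI in 13 (61.9%) and 7 (36.8%), beside 38.7% and 39.0%. The E-box was in 17 and 15 of them (81.0% and 78.9%), beside 73.2% and 73.4%. The other words searched, on both strands, were GGGCGG, TGACGTCA (CRE), GCGCATGCG (NRF1), CTAAAAATA (MEF2), GTTGCCATG (RFX), AGGGGGCGC (CTCF core), CAGCACC (REST) and GCGGGGGCG (EGR). Each was in at most 7 distal peaks of a library, and between 0.209% and 8.13% of all distal peaks held one of them. A CTCF core can overlap a match to the consensus, as at 1 Cntnap2 peak of each library. A match describes letters and is no evidence of a bound factor.

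The libraries shared most of these sites. In replicate 1, 96 of 125 peaks (76.8%) had a base in common with a replicate 2 peak, and in replicate 2, 93 of 123 (75.6%) did so with replicate 1. Over whole libraries the shares were 66.2% in replicate 1 and 80.8% in replicate 2, so the 6 genes lay above the first and below the second. Of the tallest 25% of the peaks around the 6 genes, 30 of 31 in replicate 1 and 30 of 30 in replicate 2 were found in both, beside 97.5% and 99.3% of the tallest 25% of each whole library. Of the lowest 25%, 14 of 31 and 11 of 30 were, beside 33.5% and 53.5%. So nearly all tall peaks were shared, around these genes and elsewhere. Of the 29 and 30 peaks with no strict partner, 22 and 26 lay over bases with a q under 0.05 in the other library, beside 64.9% and 76.1% of all unshared peaks.

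The tallest unshared peak of replicate 1 lay in Nrxn2 intron 1 (chr19:6420621-6420840), at 2.17, above 83.1% of its peaks. Replicate 2 had bases with q down to 0.000848 there, and its nearest strict peak was 440 bp away. The tallest unshared peak of replicate 2, also in Nrxn2, was a peak of 1.01 and 21 bp in intron 21, over bases with q down to 0.00404 in replicate 1. In the other genes the tallest unshared peaks of replicate 1 reached 0.983 in Nrxn3, 1.18 in Nlgn1, 0.701 in Nlgn2, 1.08 in Nlgn3 and 0.476 in Cntnap2. Those of replicate 2 reached 0.814 in Nrxn3, 0.653 in Nlgn1, 0.584 in Nlgn3 and 0.814 in Cntnap2, and Nlgn2 had none.

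Heights were greater in replicate 1, by a median ratio of 1.38 over the 60789 shared peaks of that library and of 1.28 over the 96 shared peaks of the 6 genes. The median ratio was 1.45 in Nrxn2, 1.51 in Nlgn1 and 1.61 in Nlgn2, and 1.16 in Nrxn3, 1.18 in Nlgn3 and 1.11 in Cntnap2. Over all shared peaks the ratio was 1.46 near starts, 1.30 for distal ones and 1.24 for distal ones in protein-coding genes of 500 kb or more. Single ratios spread from 0.584 to 2.88 in Cntnap2 and from 1.44 to 1.85 in Nlgn2. In peak numbers, replicate 1 had 1.22 times as many peaks as replicate 2 in all. In the bodies of protein-coding genes of 500 kb or more it had 1.18 times as many. The bodies of Nrxn3, Nlgn1 and Cntnap2 each held fewer in replicate 1: 47 beside 50, 14 beside 17 and 24 beside 25.

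**Figure D4:**
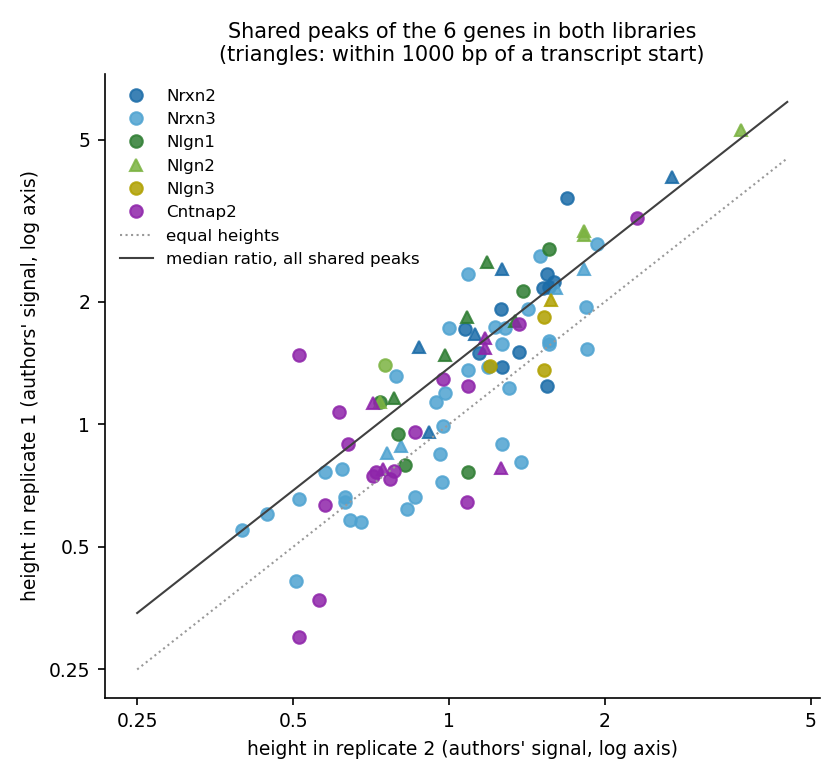
Height of each shared peak of the 6 genes in replicate 1 (vertical log axis, the authors' signal) against the highest overlapping peak in replicate 2 (horizontal log axis); triangles lie within 1000 bp of a transcript start of any gene, circles further away, the solid line is the median ratio over all shared peaks, 1.38, and the dotted line equal heights. Many Nrxn3 and Cntnap2 points of low height fall near or under the line of equal heights.

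Footprints lay in nearly all of these peaks. In replicate 1, 115 of the 125 peaks (92.0%) held at least 1 footprint, and in replicate 2, 108 of the 123 (87.8%), beside 86.0% and 83.3% of all peaks. In all there were 350 and 282 footprints. Of them 152 (43.4%) and 170 (60.3%) overlapped a footprint of the other library, beside 40.5% and 62.3% of all footprints in strict peaks. By gene, Nrxn3 held 125 and 116, Cntnap2 66 and 59, Nlgn1 57 and 33, Nrxn2 54 and 46, Nlgn2 26 and 15 and Nlgn3 22 and 13. Nlgn1, Nlgn2 and Nlgn3 each differed by more than 1.5 times between the libraries. Replicate 1 also held more footprints over whole libraries, 254585 in its strict peaks beside 170776 in those of replicate 2. The deposited footprints carry no score of their own, so a strong and a weak one cannot be told apart.

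Most of the listed partner genes were open too: of 42, replicate 1 showed a promoter peak at 41 and replicate 2 at 39, all of them shared. All 7 neuroligin scaffolds, all 4 neurexin scaffolds, both MDGA genes, which encode neuroligin inhibitors, all 4 Cntnap2 partners and all 6 relatives of Cntnap2 had one in both. Among 19 neurexin ligands and receptors, 18 and 16 did. Nxph4 had none, and Nxph1 (0.764) and Nxph3 (0.895), which encode neurexophilins, had one in replicate 1 alone. The highest was Dlg2, a scaffold of the PSD-95 family, at 6.61 and 4.45. Dag1, the gene of dystroglycan, came next in replicate 1 at 5.29 and reached 3.16 in replicate 2, where Cntnap1 was just above it. Dlg4, which encodes PSD-95, reached 2.88 and 1.97, Shank3 2.76 and 1.97, and Gphn, the gene of gephyrin at inhibitory synapses, 3.04 and 2.00. The trans-synaptic ligands Lrrtm2 and Cbln2 were near the heights of the 6 genes, at 2.47 and 1.94, and 2.42 and 1.72. Cntn2, the contactin bound by CASPR2, reached 1.67 and 0.983. Among the relatives, Cntnap1, the gene of CASPR at myelinated axons, reached 4.66 and 3.17, and Cntnap5c, the lowest, 0.782 and 0.576. Beside these counts stand the 58.7% of all protein-coding genes open in both libraries, and the part of list choice in the difference was not tested.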

How the data were processed

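DNase-seq peaks, footprints and false discovery rates per base were taken as deposited for 2 libraries of 1 group. Per the deposited descriptions peaks were called separately in each library, on its filtered alignments to mm10. No aligner or caller, version or threshold is given in these sources. The peak height is a signal deposited by the authors. The authors' rate per base, a q-value, was deposited for bases under 0.05, and footprints carry the deposited constant 0.01, read as a p-value threshold. The smaller of the 2 peak files of a library was used as the strict set, and every peak in it held a base under 0.001. Sequencing depth is not given, so intervals could not be computed.

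Genes and transcript starts came from GENCODE M21 and sequences from RefSeq GRCm38.p6. A promoter was open if a strict peak lay within 1000 bp of a start, and starts less than 1000 bp apart formed 1 promoter. A peak belonged to a window by its centre. Peaks of 1 library can overlap each other and were counted as deposited. Shared means at least 1 bp in common. Consensus words were searched on both strands within 200 bp at peak centres. The text names all 6 genes, every promoter with a peak, at most 2 closed promoters per gene with their values, the 3 highest shared distal peaks per gene and the tallest unshared peak per gene and library. The genes, partner lists and motifs were chosen with earlier results of these data known, and the CTCF consensus and GTGGGNGGG after the sequences were seen. With 2 libraries no test was run. Peak overlap, grouping of starts and window edges were tested on simulated data, where 500 of 500 planted overlaps and 200 of 200 planted promoters were recovered. Alternatives covered the promoter window, the flank, the peak set, a height threshold, the overlap rule, the grouping and type of transcripts and each library left out. Python 3.11.15, numpy 2.4.6 and matplotlib 3.10.9 were used.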

Additional observations from a re-analysis of the deposited data

How the results depend on the processing

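Of 42 alternatives, 38 left their result within 1.5 times the reported count or within the spread of the libraries, and 4 did not. For the highest promoter peak, leaving out 1 of 2 libraries always stays within their SD, so those settings could not have moved. With the larger peak file of each library the windows held 259 and 242 peaks in replicates 1 and 2 (mean 250.5) in place of 125 and 123, and 71.8% and 75.6% of them (mean 73.7%) were shared in place of 76.8% and 75.6%. With peaks at or above the median height of their library, they held 73 and 68 peaks (mean 70.5), and 76.7% and 77.9% were shared (mean 77.3%). All 6 genes kept a promoter peak in both libraries with windows of 500 bp and 2500 bp, with the larger file and with the height threshold. The 2500 bp window can only add peaks. The highest promoter peak of each of the 6 genes was already above the median height of its library. So neither that window nor the height threshold could have lowered this count. The number of alternative promoters open in both libraries ranged from 9, with protein-coding transcripts only, to 17, with the larger file, beside 12 as reported. Of 42 partner genes, 34 to 41 were open in both. Leaving out 1 library gave 123 to 125 peaks, 282 to 350 footprints and a median highest promoter peak of 1.70 to 2.46. Chosen after the data were seen, 2 further settings each left 5 of the 6 genes. With the first promoter of each gene alone, Nlgn3 had no peak in replicate 2. Without peaks that also lie near a neighbouring coding gene, Nlgn2 had none there. No paired analysis was possible because there is 1 group. Depth is not given, so what it limits cannot be stated.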

Other observations

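The shared peak with the most unequal heights in these windows lay in Cntnap2, at chr6:47188301-47188500, where it reached 1.48 in replicate 1 and 0.514 in replicate 2. Its ratio of 2.88 exceeded that of 99.9% of all shared peaks. In the same part of the gene, at chr6:47244284-47244540, promoter 4 had a ratio of 0.621, near the other end of the distribution. The lowest ratio, 0.584, also lay in Cntnap2 (chr6:45700509-45700607, 0.300 and 0.514), and 1 Nrxn3 peak (chr12:89479219-89479351) was at 0.587, with 0.807 and 1.37. These heights compare peaks whose edges differ between the libraries, and no test of the difference was possible.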
